A study of Mus musculus with 9 samples.

Results

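Open chromatin was examined at 10 mouse genes that encode chromatin regulators: Chd7, Jmjd1c, Kmt2a, Men1, Dot1l, Tet2, Dnmt3a, Asxl1, Ezh2 and Bmi1. A peak of open chromatin was assigned to a gene when its summit lay inside the GRCm38 span of the gene, or within 50 kb of it with that gene as the nearest protein-coding gene. Peaks that shared at least 1 bp were merged across libraries, which gave 84 regions at these genes of 76253 regions in all. Chd7 held 23 of them, Jmjd1c 19, Dnmt3a 12, Tet2 11, Dot1l 6, Kmt2a, Asxl1 and Ezh2 3 each, and Men1 and Bmi1 2 each. Chd7 and Jmjd1c were selected on peak presence, since each has a region with peaks in the 3 single mutants and not in WT, so the values of those regions are given as a description, with no test. The other 8 genes are well-known regulators of blood stem cells. At the edge of the 50 kb window, the farthest region kept lay 48.8 kb from Chd7 with folds of 5.82 to 10.3, and the nearest region left out lay 58.3 kb from it with folds of 3.31 to 5.24.

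The data are 9 ATAC-seq libraries of LSK cells, the lineage-negative, Sca-1-positive, Kit-positive marrow fraction with stem cells and early progenitors. In ATAC-seq the Tn5 transposase cuts and tags accessible DNA. WT, Bcat_KO (β-catenin), HOXA9_KO and PRMT1_KO had 2 libraries each, together the 8 paired libraries. The dKO, which lacks β-catenin and Hoxa9 together, had 1 library, and its values have no replicate error. The titles call the mutants KO while the genotype tags call them knockdown. The design text names transplanted mice lacking Prmt1 as the source of LSK cells, and gives no source for the other groups. The allele, the driver of any deletion, and the age, sex and strain of the mice are not given in the sources used here. Nothing says that replicate libraries are from different mice, so p-values measure the spread between these libraries, which may be technical.

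These genes act on the histone tails, nucleosomes and cytosines that set which regulatory DNA is used. Kmt2a and Dot1l methylate histone H3 at active genes, with menin (Men1) as a scaffold of the Kmt2a complex, and Ezh2 and Bmi1 are subunits of the Polycomb complexes PRC2 and PRC1, which hold genes silent. Dnmt3a adds methyl groups to cytosine and Tet2 oxidises them, Asxl1 is the partner of the histone H2A deubiquitinase Bap1, Jmjd1c belongs to a family of H3K9 demethylases, and Chd7 is an ATP-dependent remodeller that occupies enhancers. Many of them govern the balance between self-renewal and differentiation of stem cells, and several are recurrently mutated or rearranged in myeloid leukaemia.

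The deposited lists held 28325 to 45460 peaks in the 8 paired libraries, the fewest in WT, and 10639 in the dKO. Fold is the reads piled up at the summit plus 1, divided by the local background plus 1. The added 1 lowers fold most where the background is low, as in the dKO. Fold was not scaled between libraries, so peaks were compared by rank within a list, where rank 1 is the lowest p-value. Each paired list was first shortened to its 28325 strongest peaks. Of the 10 LSK marker genes looked for, 8 or 9 had a peak within 1 kb in each paired library and 6 in the dKO, while Ly6a, which encodes Sca-1, had none in any library. Of 4 markers each, the paired libraries had peaks at 4 for erythroid cells, 3 or 4 for stromal and endothelial cells, 2 for B cells, 1 or 2 for T cells and 0 to 2 for granulocytes and monocytes, so peaks at marker genes alone do not separate cell types here. Of the granulocyte and monocyte markers, Itgam had a peak in both Bcat_KO and both PRMT1_KO libraries and in no WT, HOXA9_KO or dKO library. Mpo had one in WT replicate 1 and both PRMT1_KO libraries, and Elane and Ly6g had none in any library. The markers thus did not share one pattern, and their part in the results was not tested. Peaks in male-specific parts of chromosome Y numbered 12 to 16 in each single-mutant library, 6 in the dKO and 0 in both WT libraries, so genotype and sex of the mice cannot be told apart in any comparison with WT. The median peak was wider in WT (463 and 413 bp) than in the single mutants (311 to 393 bp), and its part in the results was not tested. In a bulk population, more open chromatin per cell and more cells of an open type cannot be told apart.

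In the lists as deposited, nearly every region at a listed start was open in all of the paired libraries, for the 9 genes with a listed start. Peaks were found in all 8 paired libraries at 25 of the 84 regions, against 25.5% of all regions. These were 11 of the 12 regions within 1 kb of a listed transcription start, 2 of the 4 at another end of a gene, 9 of the 50 elsewhere in the gene bodies and 3 of the 18 outside the genes. The share over all regions was not taken by place. Of the 15951 regions in all 8 shortened lists, 7968 lay at a listed start, so nothing particular to these genes is read from the split. At the other extreme, 23 regions had a peak in 1 paired library alone (32.3% of all regions), and all 23 lay in gene bodies or outside the genes. No WT peak was present at 38 of the 84 regions (47.6% of all regions), and no single-mutant peak at 1 (5.44% of all regions). When the lists were cut to the same length, WT libraries held 33 and 35 of the regions, those of Bcat_KO 40 and 39, of HOXA9_KO 35 and 39, and of PRMT1_KO 40 and 42. These made up 0.117% and 0.127% of the regions in the WT lists and 0.125% to 0.151% of those in the single-mutant lists. The counts include the 2 regions of Chd7 and Jmjd1c for which these genes were picked, which WT lacks by that choice, so nothing is read from the gap. The counts of WT and the single mutants met at 35, in WT replicate 2 and HOXA9_KO replicate 1.

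**Figure D1:**
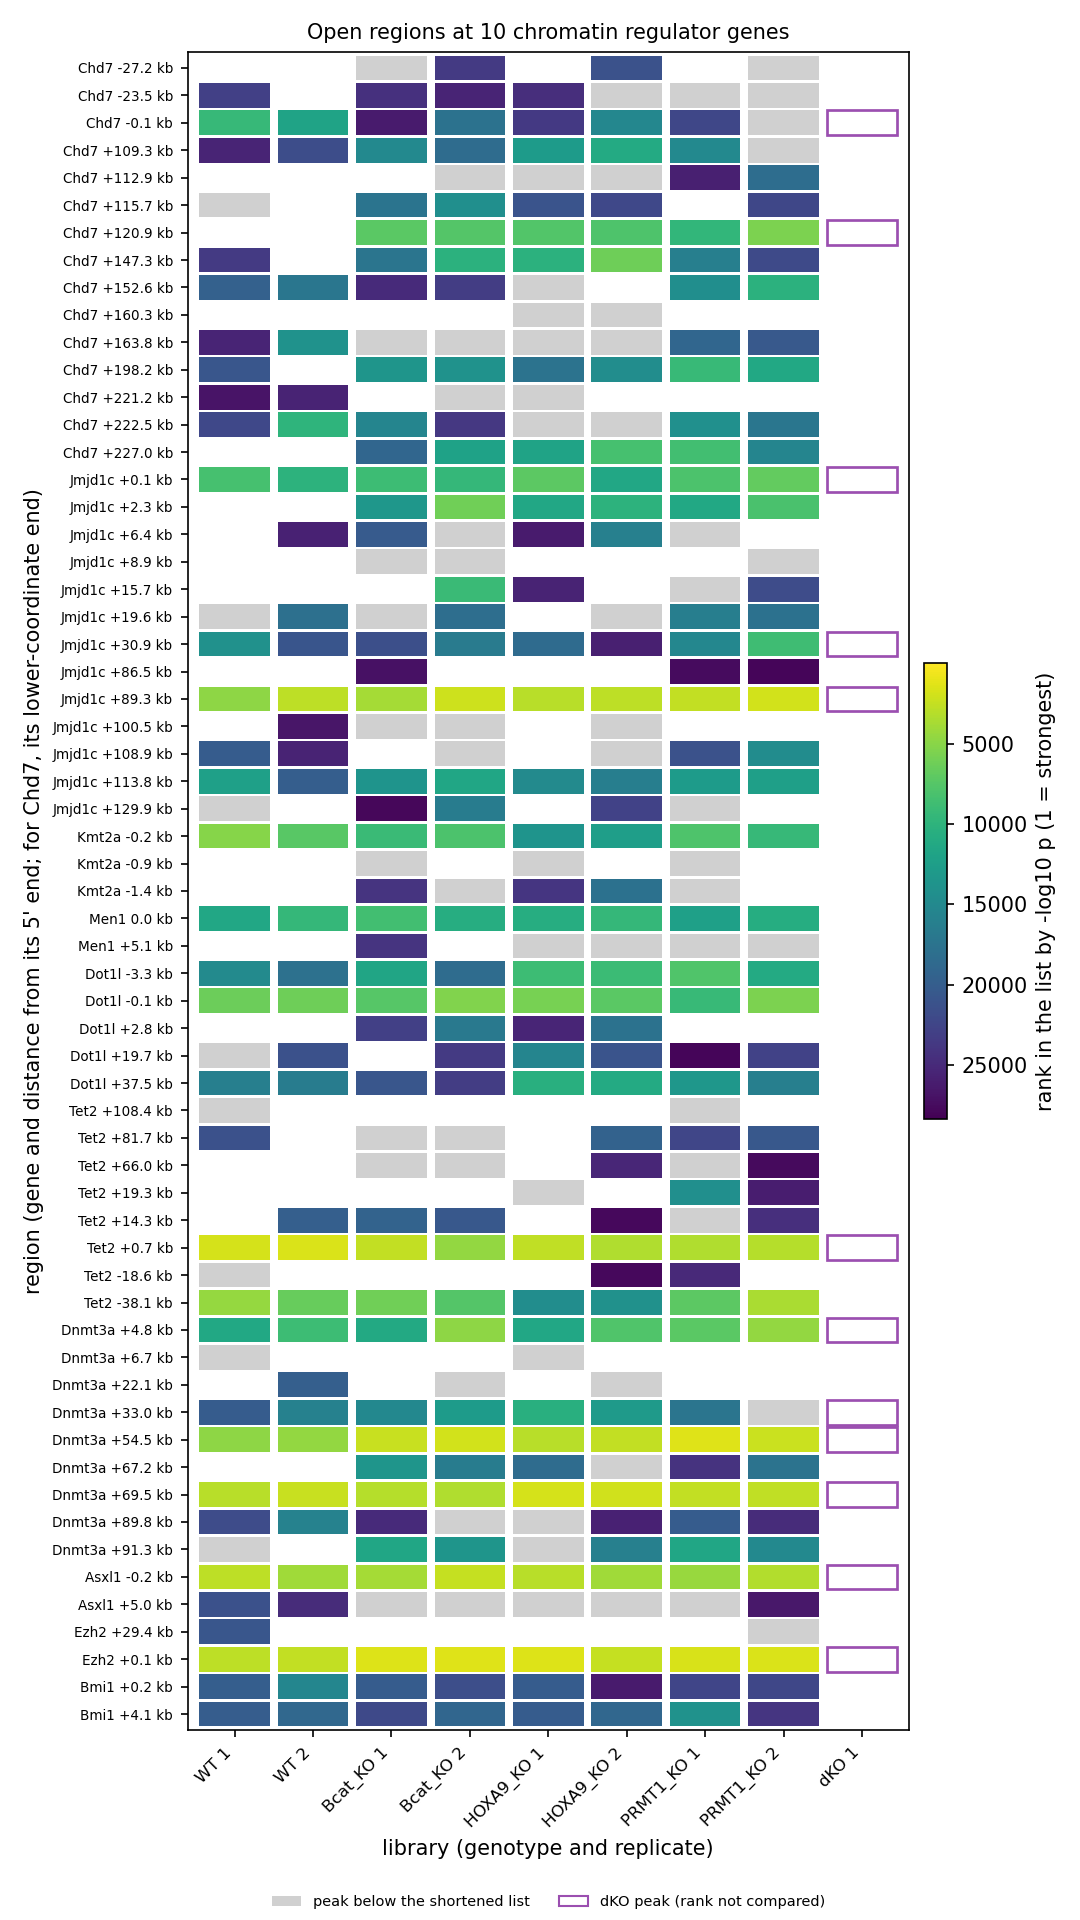
Rows are the regions with a peak in more than 1 of the 8 paired libraries, named by gene and distance in kb from the 5′ end of the gene (for Chd7, from its lower-coordinate end), and columns are the 9 libraries. Colour gives the rank of the strongest peak in a list of 28325 (1 is strongest), grey a peak that fell below that list, white no peak, and purple boxes the 12 regions with a peak in the dKO. Among the brightest rows are the starts of Tet2, Ezh2 and Asxl1, Jmjd1c +89.3 kb and 2 regions inside Dnmt3a. Other start rows are duller, such as that of Bmi1. Chd7 +120.9 kb, Chd7 +227.0 kb and Jmjd1c +2.3 kb are white in both WT columns and coloured in all 6 single-mutant columns.

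Opened regions of a mutant were those within rank 14162 in each of its libraries that had no peak within rank 28325 in either WT library, and closed regions the opposite. Since 2 libraries against 2 cannot give an exact p under 0.33, these are counts with no test. In Bcat_KO, 3 of the 53 regions compared were opened, against 0.311% of all regions, and 0 were closed (0.0961% of all regions). In HOXA9_KO, 3 of 54 were opened (0.508% of all regions) and 0 closed (0.182% of all regions). In PRMT1_KO, 2 of 53 were opened (0.219% of all regions) and 0 closed (0.0823% of all regions). The 3 comparisons share their WT libraries, and the picked regions of Chd7 and Jmjd1c are 2 of the opened regions in each, so nothing is read from the excess over the background. Besides the picked regions, 1 was opened in Bcat_KO, inside Dnmt3a, and 1 in HOXA9_KO, beyond the far end of Chd7. The latter lies at a gene chosen for peaks in the single mutants and not in WT, so it is not independent of that choice. Opened in all 3 single mutants at once were the 2 picked regions of 59 (0.0406% of all regions), and 0 of 59 were closed (0.0149% of all regions).

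Chd7 (chr4:8690402-8868449) held the opened region with the highest fold, 120.9 kb inside the gene from its lower-coordinate end, at chr4:8811076-8811604. Its peak ranked 7266 and 7605 in the Bcat_KO pair, 7715 and 7862 in the HOXA9_KO pair, and 9727 and 5571 in the PRMT1_KO pair. Neither WT library had a peak there, and all 6 single-mutant libraries placed it in the stronger part of their lists. Fold over background was 12.0 and 11.9 in the Bcat_KO pair, 11.6 and 12.4 in the HOXA9_KO pair, and 11.7 and 14.1 in the PRMT1_KO pair, a mean of 12.3 ± 0.948 (SD, n = 6). The 6 summits lay between positions 8811240 and 8811311, so all libraries placed the summit in the same stretch of the gene body.

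Fold and p together give the number of reads behind a summit, which was 31 to 39 in the single mutants at the Chd7 region. At the same relative background, WT replicates 1 and 2 called peaks from as few as 7 and 6 reads, with folds of 2.79 and 2.97. A fold equal to the lowest in the mutants (11.6) would have needed 30.9 and 26.1 reads there. The region was picked for its absence from WT, so these reads describe it and are no test. The dKO, in a much shorter list, had a peak in this region at rank 4151, from 8 reads, with a fold of 6.16 (95% Poisson interval of the reads 3.05 to 11.5, counting error only). It was the only one of the 84 regions with a dKO peak and no WT peak. No share of all regions with that pattern is given, and the lack of a WT peak was part of the choice. Nothing is therefore read from this count. The local background there was 0.461 reads in the dKO, lower than in the single mutants. The 1 added to both parts of the ratio therefore lowered the dKO fold more, and its fold is not compared with theirs.

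The other Chd7 region with a peak in all 6 single mutants and none in WT lay beyond the gene, at chr4:8917161-8917533, 48.8 kb from the far end of its span. It ranked 19132 and 12014 in the Bcat_KO pair, 11888 and 8384 in the HOXA9_KO pair, and 8600 and 15403 in the PRMT1_KO pair. All 6 single mutants had the peak, and only HOXA9_KO had both libraries within rank 14162. The other regions of Chd7 did not share one direction. At 147.3 kb inside the gene, the peak ranked 23523 in WT replicate 1, was missing in WT replicate 2, and ranked 6201 to 21936 in the single mutants. Beyond the far end of the gene, 198.2 kb from its lower-coordinate end, it ranked 20694 in WT replicate 1, was missing in WT replicate 2, and ranked 9238 to 17507 in the single mutants. WT was the weaker group at both. At 109.3 kb, WT ranked 25520 and 21693 and the single mutants 11129 to 18437, except PRMT1_KO replicate 2 at 29352. At 115.7 kb, WT replicate 1 ranked 32325 and WT replicate 2 had no peak. There the single mutants ranked 14280 to 22241, except PRMT1_KO replicate 1, which had no peak. Regions at 112.9 kb and 27.2 kb before the lower-coordinate end had peaks in 5 and 4 single-mutant libraries, respectively, and none in WT. At 221.2 kb from the lower-coordinate end both WT libraries had a peak (ranks 26809 and 25648), and of the single mutants only Bcat_KO replicate 2 and HOXA9_KO replicate 1 did, in each below the shortened list. At 163.8 kb WT ranked 25521 and 13867 and the single mutants 19051 to 37985 in the lists as deposited, and at 222.5 kb WT ranked 22219 and 9939 and the single mutants 14230 to 36975. At each of those 2 regions WT replicate 2 was ahead of all 6 single mutants while WT replicate 1 lay among them. At 23.5 kb before the lower-coordinate end, WT replicate 1 (rank 22980) was ahead of all 6 single mutants and WT replicate 2 had no peak.

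The region at the lower-coordinate end of Chd7, chr4:8689991-8691657, ranked 9353 and 11872 in WT, 26302 and 17662 in the Bcat_KO pair, 23615 and 15229 in the HOXA9_KO pair, and 22257 and 28515 in the PRMT1_KO pair. Both WT libraries were stronger by rank than all 6 single mutants, with no overlap. Fold was 8.06 and 6.79 in WT and 4.81 to 7.92 in the single mutants, which overlap. The rank of PRMT1_KO replicate 2 was below the shortened list, so this region entered no test.

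**Figure D2:**
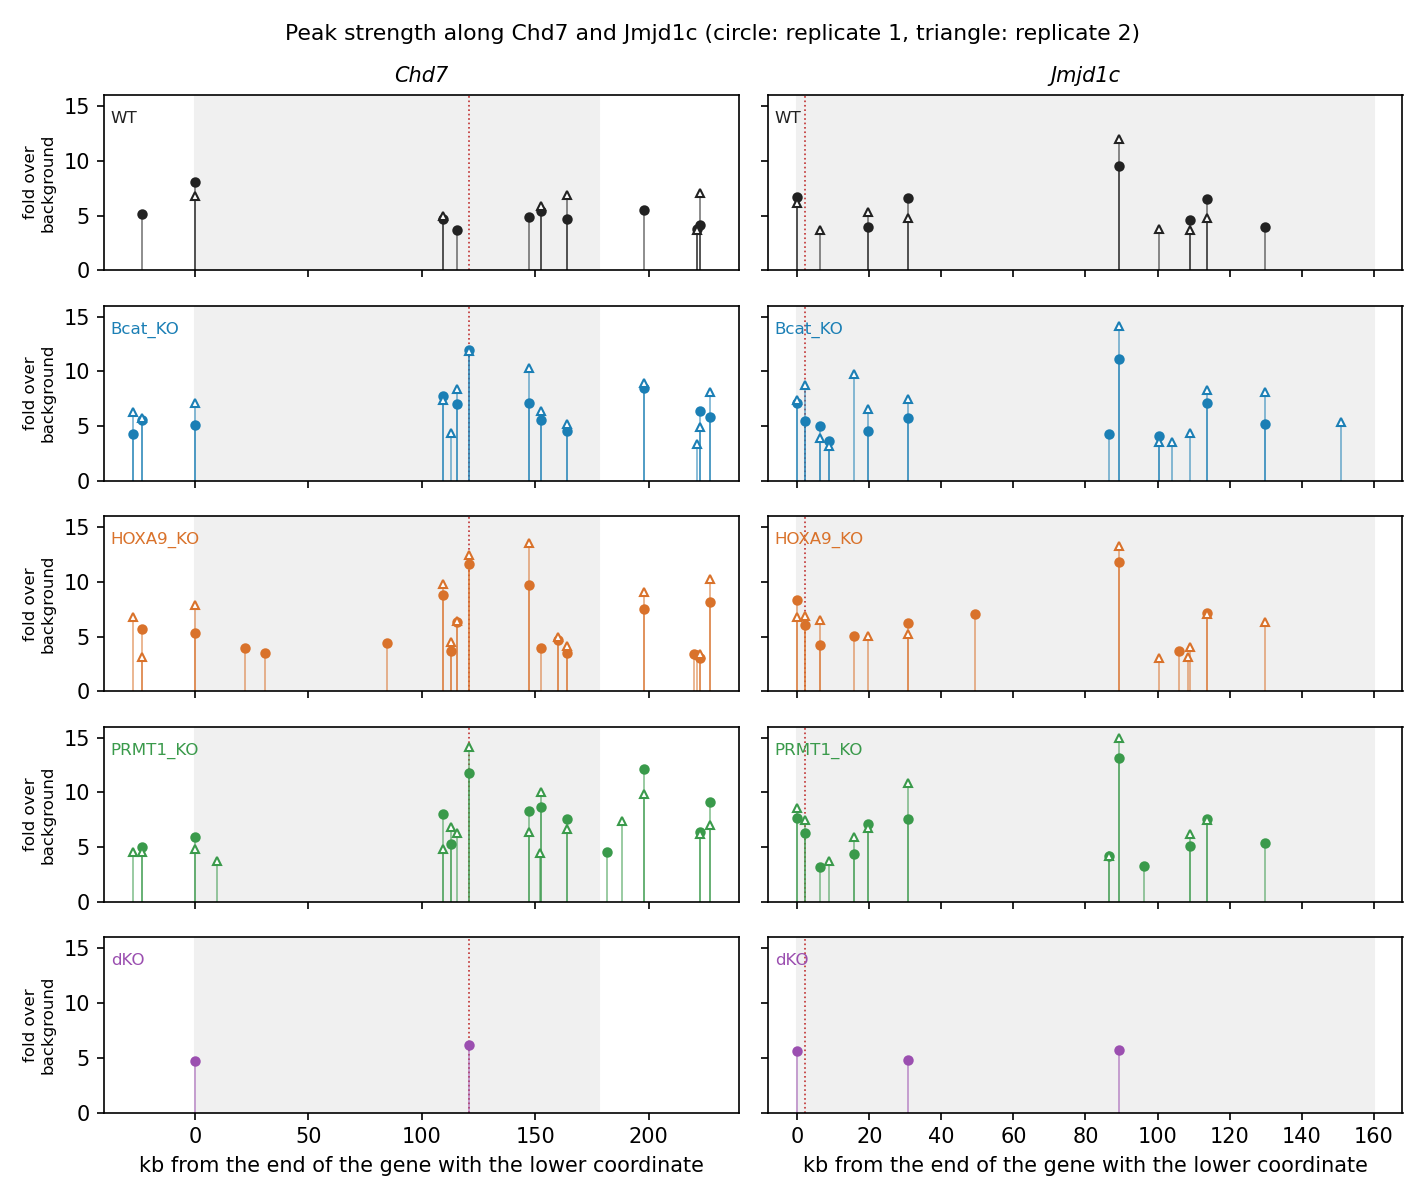
Peak strength along Chd7 (left) and Jmjd1c (right) by genotype, as fold over local background against the distance in kb from the lower-coordinate end of the gene; circles are replicate 1, triangles replicate 2, grey shading the gene span and the red dotted line the picked region. At the dotted line WT has no peak and the single mutants have folds of 11.6 to 14.1 in Chd7 and 5.50 to 8.71 in Jmjd1c; fold is not scaled between libraries.

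Jmjd1c (chr10:67096351-67256326) had its picked region 2.3 kb inside the 5′ end of the gene, at chr10:67098497-67098842. The peak ranked 13324 and 6097 in the Bcat_KO pair, 11475 and 10159 in the HOXA9_KO pair, and 11384 and 8103 in the PRMT1_KO pair. It was absent from both WT lists and from the dKO list. Fold was 5.50 and 8.71 in the Bcat_KO pair, 6.09 and 6.88 in the HOXA9_KO pair, and 6.26 and 7.52 in the PRMT1_KO pair, a mean of 6.83 ± 1.15 (SD, n = 6), from 36 to 54 reads. The local background at this place was high, 4.32 times the lowest of a library as the median over the mutants, so more reads gave a lower fold here than in Chd7. At that background WT called peaks from 17 and 15 reads, and the lowest mutant fold would have needed 36.6 and 29.0 reads.

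The neighbouring region of Jmjd1c at its 5′ end, chr10:67096125-67097492, was open in every library. It ranked 8361 and 10077 in WT and 6824 to 11504 in the single mutants, so the groups overlap within a few kb of a region that WT lacked. The strongest region of Jmjd1c lay at an internal start 89.3 kb into the gene (chr10:67185419-67186098). It ranked 4866 and 2850 in WT, 3793 and 2109 in the Bcat_KO pair, 3079 and 2775 in the HOXA9_KO pair, and 2648 and 1975 in the PRMT1_KO pair. WT replicate 2 lay among the mutants, and the rank did not pass the test of single mutants against WT described below (exact permutation p = 0.143). A region 15.7 kb into the gene had no WT peak. It had peaks in both PRMT1_KO libraries (ranks 32561 and 21904), Bcat_KO replicate 2 (9094) and HOXA9_KO replicate 1 (25624).

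The internal starts of Jmjd1c are shown because they differ in sequence as well as in strength. The start 30.9 kb into the gene was weaker, with ranks of 14081 and 20889 in WT and 8813 to 25829 in the single mutants. The 250 bases before each listed start, from RefSeq (GRCm38.p6, plus strand), are chr10:67126838-67127087 for the start at 30.9 kb and chr10:67185500-67185749 for the start at 89.3 kb. Both windows lie inside the span of the longer gene model. Capitals mark exact matches to the motifs searched.
Jmjd1c start at 30.9 kb: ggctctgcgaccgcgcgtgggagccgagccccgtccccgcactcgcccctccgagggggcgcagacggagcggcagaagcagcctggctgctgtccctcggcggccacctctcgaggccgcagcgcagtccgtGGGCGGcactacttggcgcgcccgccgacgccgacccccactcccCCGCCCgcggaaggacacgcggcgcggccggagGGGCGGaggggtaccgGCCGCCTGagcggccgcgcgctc
Jmjd1c start at 89.3 kb: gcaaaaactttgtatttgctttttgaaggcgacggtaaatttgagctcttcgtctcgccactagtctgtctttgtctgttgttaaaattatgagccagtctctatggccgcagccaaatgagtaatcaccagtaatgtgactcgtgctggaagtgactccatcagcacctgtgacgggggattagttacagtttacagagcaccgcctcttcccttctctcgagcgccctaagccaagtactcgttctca
The weaker start holds 79.6% G and C and 40 CpG dinucleotides, and the stronger one 47.2% and 11. In capitals in the weaker start are 3 matches to the SP/KLF string GGGCGG and 1 to the CTCF string CAGNNGGC, and the stronger start has no match to any of the 13 strings.

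The 13 strings were searched on both strands in the 250 bases before each listed start, for the 9 genes with an entry (14 starts) and for all 32851 starts. A gene was counted when any of its starts had a match, while the share over all starts is per start. The measures are unlike, since a gene with more starts has more windows. The SP/KLF string was found at 8 of the 9 genes, Ezh2 being the exception, and at 32.7% of all starts. The CTCF string was found at 5 of 9 genes (21.5% of all starts), the ETS string CCGGAA at 3 (12.0%), the RUNX string TGTGGT at 2 (14.0%) and the NF-Y string CCAAT at 2 (33.8%). No match was found for PU.1 GAGGAAGT (2.44% of all starts), for the string AGATAA of the GATA factors (9.99%), for TCF/LEF CTTTGA (13.8%), for HOX-PBX TGATTNA (9.11%), for AP-1 TGANTCA (6.75%), for YY1 AAGATGGC (1.56%), for NRF1 GCGCATGC (2.26%) or for the E-box CAGCTG (13.0%). The starts of these genes were rich in CpG, with a median of 22 per window and 72% G and C, against 6 and 52.4% over all starts. A short string with GC-rich letters is found more easily in such windows, and a match is a run of letters, not a bound site.

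Regions with a peak in all 8 shortened lists could be tested by rank, and 18 of the 59 regions of these genes were among them, against 34.0% of all regions. The ranks were tested by exact permutation, first for a difference among the 4 genotypes (smallest possible p 0.00952) and then for single mutants against WT (smallest possible p 0.0357), with Benjamini-Hochberg adjustment over all 15951 shared regions. An unadjusted p of 0.05 or less was reached at 4 of 18 regions in the test among genotypes (12.5% of all shared regions) and at 4 of 18 in the test against WT (11.2% of all shared regions). None passed after adjustment: the lowest adjusted p from these exact permutation tests was 0.351 among genotypes and 0.319 against WT, and over all shared regions it was 0.325 and 0.319. The regions below are therefore described by their values, and none is called changed. Over the 18 regions the median difference in rank, mutants minus WT, was -71.1, against 178 over all shared regions, where a negative value means stronger in the mutants. At 10 of the 18 (55.6%) the mutants were stronger on average, against 45.3% of all shared regions.

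**Figure D3:**
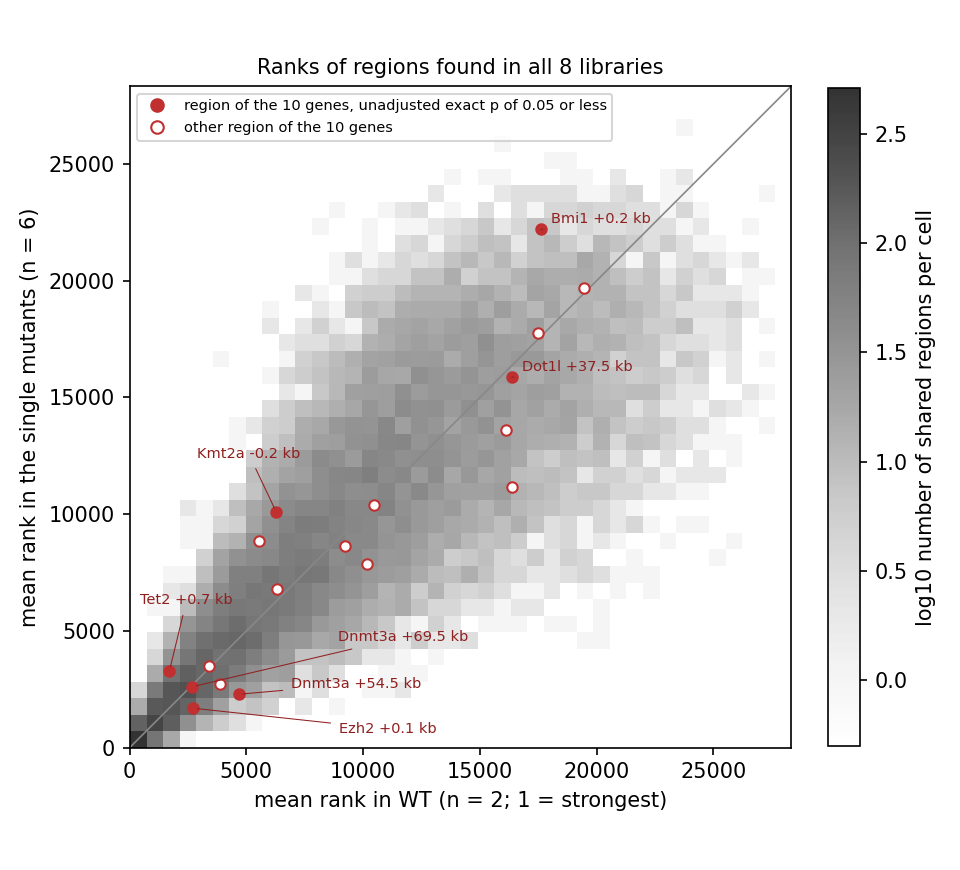
Mean rank in the 6 single-mutant libraries against mean rank in the 2 WT libraries for all 15951 shared regions (grey, log10 number per cell) and for the 18 at chromatin regulator genes (circles); filled circles had an unadjusted exact p of 0.05 or less in either test, none of which passed adjustment, and the line marks equal rank. The circles lie within the cloud, with Tet2, Kmt2a and Bmi1 starts above the line (stronger in WT) and Ezh2 and Dnmt3a +54.5 kb below it.

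Among the activating histone methyltransferases and their scaffold, Kmt2a (chr9:44803355-44881352, minus strand), which methylates H3K4 and maintains Hox expression, had the lowest p among genotypes of the start regions. Its start region, chr9:44880988-44881889, ranked 5183 and 7370 in WT, 9098 and 8005 in the Bcat_KO pair, 13689 and 12598 in the HOXA9_KO pair, and 7864 and 9380 in the PRMT1_KO pair. WT was strongest and HOXA9_KO weakest, and neither overlapped any other group, while Bcat_KO and PRMT1_KO overlapped each other. The ranks gave an exact permutation p of 0.0381 among genotypes (adjusted p 0.369) and 0.0714 against WT. Ranked by fold in place of p-value, the exact permutation p among genotypes was 0.0667, and it was over 0.05 without WT replicate 1 (0.0952) and without either Bcat_KO library (0.0571 for each). In fold itself the groups overlapped, with 9.46 and 7.78 in WT and 6.92 and 7.94 in HOXA9_KO.

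The DNA before the Kmt2a start is shown because this region had the widest separation of WT and HOXA9_KO among the start regions tested. The 187 bases outside the gene span that precede its listed start, from RefSeq (GRCm38.p6, chr9:44881353-44881539, minus strand), read as follows.
Kmt2a: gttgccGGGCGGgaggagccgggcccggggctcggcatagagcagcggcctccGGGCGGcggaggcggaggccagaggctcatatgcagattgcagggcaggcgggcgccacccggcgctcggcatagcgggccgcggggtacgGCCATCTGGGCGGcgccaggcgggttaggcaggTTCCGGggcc
Capitals mark 3 SP/KLF matches, 1 CTCF match that overlaps the last of them, and 1 ETS match, in a window with 77.0% G and C and 23 CpG. Further regions upstream at chr9:44882450-44883086 and chr9:44882028-44882309 had no WT peak. The former had peaks in 5 single-mutant libraries, at ranks of 17762 to 35511, and the latter in 3, at ranks of 32948 to 36705.

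Men1 (chr19:6334979-6340894) encodes menin. Its start region, chr19:6334691-6335447, ranked 11442 and 9510 in WT, 8536 and 10650 in the Bcat_KO pair, 10700 and 9419 in the HOXA9_KO pair, and 12298 and 10820 in the PRMT1_KO pair. Each mutant overlapped WT (exact permutation p = 0.467 among genotypes and 0.929 against WT). The opposite end of the gene had a weak region, chr19:6339972-6340430, with peaks in 5 of the 6 single-mutant libraries at ranks of 24098 to 35753 and none in WT.

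Dot1l (chr10:80755101-80795461), the H3K79 methyltransferase, had a start region whose range of ranks in every mutant enclosed that of WT. This region, chr10:80754898-80755419, ranked 6349 and 6242 in WT and 5359 to 9250 in the single mutants (exact permutation p = 0.981 among genotypes). A region 37.5 kb into the gene, chr10:80792173-80793119, spread more. It ranked 16228 and 16494 in WT, 20741 and 23331 in the Bcat_KO pair, 10404 and 11147 in the HOXA9_KO pair, and 13295 and 16256 in the PRMT1_KO pair. HOXA9_KO was strongest and Bcat_KO weakest, each clear of the other groups, while PRMT1_KO replicate 2 fell between the WT libraries.

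This Dot1l region had the lowest p of the 18 in the test among genotypes (exact permutation p = 0.0190, adjusted p 0.351), and the difference against WT did not pass (exact permutation p = 0.929). Fold was 5.83 and 5.56 in WT, 5.69 and 5.46 in the Bcat_KO pair, 8.44 and 9.14 in the HOXA9_KO pair, and 7.77 and 7.08 in the PRMT1_KO pair. Upstream of Dot1l, at chr10:80751276-80752513, ranks were 14827 and 17906 in WT, 11697 and 18440 in the Bcat_KO pair, 8855 and 8973 in the HOXA9_KO pair, and 7795 and 11136 in the PRMT1_KO pair. Those of WT overlapped Bcat_KO and lay below HOXA9_KO and PRMT1_KO in strength (exact permutation p = 0.200 among genotypes). A region 2.8 kb inside the gene had peaks in both Bcat_KO libraries (ranks 22919 and 16850) and both HOXA9_KO libraries (25376 and 17653), and in no WT or PRMT1_KO library.

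Of the genes acting on DNA methylation, Dnmt3a (chr12:3801559-3914443) had the most regions in all 8 lists. The main ones were a pair inside the gene, at chr12:3855618-3856479 and chr12:3870853-3871788, both also present in the dKO. The former, 54.5 kb into the gene, ranked 4784 and 4579 in WT, 2360 and 1990 in the Bcat_KO pair, 3086 and 2611 in the HOXA9_KO pair, and 1409 and 2295 in the PRMT1_KO pair. Both WT libraries were weaker than all 6 single mutants, and among the mutants HOXA9_KO was weakest while Bcat_KO and PRMT1_KO overlapped. Fold was 9.70 and 9.73 in WT and 12.3 to 14.8 in the single mutants, also without overlap.

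The exact permutation p of this region was 0.0357 against WT (adjusted p 0.319), the smallest that test allows, and 0.0381 among genotypes (adjusted p 0.369). Among genotypes it was 0.0571 without Bcat_KO replicate 2, 0.0762 without HOXA9_KO replicate 1 and 0.0857 ranked by fold. The region 69.5 kb into the gene ranked 3033 and 2332 in WT, 3166 and 3335 in the Bcat_KO pair, 1857 and 2036 in the HOXA9_KO pair, and 2560 and 2721 in the PRMT1_KO pair. HOXA9_KO was strongest and Bcat_KO weakest, by rank, with PRMT1_KO inside the range of WT (exact permutation p = 0.0476 among genotypes, adjusted p 0.381, and 0.893 against WT). That p was over 0.05 without any one of the 6 single-mutant libraries, from 0.0952 to 0.171. Fold was 11.5 and 12.2 in WT, 11.8 and 12.7 in the Bcat_KO pair, 13.5 and 14.5 in the HOXA9_KO pair, and 13.1 and 13.6 in the PRMT1_KO pair, so by fold Bcat_KO was not weaker than WT.

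The listed starts of Dnmt3a lay far apart in rank. The region at 4.8 kb, chr12:3806040-3808140, ranked 11342 and 8958 in WT and 4626 to 11457 in the single mutants, and the region at the start 89.8 kb into the gene, chr12:3891000-3892247, ranked 21847 and 15882 in WT and 20213 to 31303 in the single mutants. Next to the latter, at chr12:3892506-3893183, lay the region opened in Bcat_KO. It ranked 32518 in WT replicate 1, below the shortened list, was missing in WT replicate 2, and ranked 11511 and 13588 in the Bcat_KO pair, 38441 and 16128 in the HOXA9_KO pair, and 11609 and 14952 in the PRMT1_KO pair. PRMT1_KO replicate 2 and HOXA9_KO replicate 2 stood just outside rank 14162, and HOXA9_KO replicate 1 fell below the shortened list. Fold was 3.19 in WT replicate 1, 7.80 and 7.26 in the Bcat_KO pair, 3.18 and 6.91 in the HOXA9_KO pair, and 7.75 and 6.86 in the PRMT1_KO pair, so PRMT1_KO was close to Bcat_KO although only Bcat_KO was called, and the HOXA9_KO libraries lay apart from each other. A weaker region at chr12:3868571-3868886 had a peak in all 6 single mutants (ranks 13573 and 16538 in the Bcat_KO pair, 18455 and 35417 in the HOXA9_KO pair, 24166 and 17529 in the PRMT1_KO pair) and in neither WT library.

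Counting lists as deposited, that region, the picked ones and the region beyond Chd7 made 4 of 84 with a peak in all 6 single-mutant lists and in neither WT list, against 1.73% of all regions, while 0 of 84 had the reverse pattern (0.235% of all regions). The picked regions and the region beyond Chd7 lie at genes chosen for this pattern, so nothing is read from the excess. At the weak Dnmt3a region, fold was 6.13 and 5.85 in the Bcat_KO pair, 4.85 and 3.18 in the HOXA9_KO pair, and 4.35 and 5.49 in the PRMT1_KO pair. The lowest of these, in HOXA9_KO replicate 2, would have needed 16.3 and 13.0 reads in WT, where peaks were called from 13 and 11 reads. That fold lay near what WT could call, and the other 5 lay farther above it.

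Tet2 (chr3:133463677-133545136, minus strand), which starts the removal of cytosine methylation, had a strong start region at chr3:133543963-133545309. It ranked 1842 and 1576 in WT, 2652 and 4606 in the Bcat_KO pair, 2698 and 3335 in the HOXA9_KO pair, and 3331 and 3163 in the PRMT1_KO pair. Both WT libraries were stronger by rank than all 6 single mutants, which overlapped one another (exact permutation p = 0.0357 against WT, adjusted p 0.319, and 0.200 among genotypes). Fold did not show this, with 9.83 and 10.3 in WT and 9.91 to 11.5 in the single mutants. Ranked by fold, the exact permutation p against WT was 0.0714, and it was 0.0952 without HOXA9_KO replicate 2 or without PRMT1_KO replicate 1.

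Upstream of Tet2, 38.1 kb outside the gene at chr3:133582937-133583827, lay a region that was weakest in HOXA9_KO. It ranked 4477 and 6581 in WT, 6125 and 7626 in the Bcat_KO pair, 14565 and 14054 in the HOXA9_KO pair, and 7089 and 3644 in the PRMT1_KO pair. HOXA9_KO stood clear of the other 6 libraries, which overlapped, and the test among genotypes did not pass (exact permutation p = 0.0952, adjusted p 0.426). This region was picked out after its values were seen. Regions 19.3 kb and 66.0 kb inside Tet2 had no WT peak. The former had peaks in both PRMT1_KO libraries (ranks 14345 and 26012) and in HOXA9_KO replicate 1 (39731). The latter had weak peaks in both Bcat_KO libraries (28395 and 32919), both PRMT1_KO libraries (34687 and 27659) and HOXA9_KO replicate 2 (25237).

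The Polycomb genes gave start regions that lay on opposite sides of WT. Ezh2 (chr6:47530274-47595270, minus strand), the H3K27 methyltransferase of PRC2, had a start region at chr6:47594238-47595850 that ranked 2796 and 2642 in WT, 1537 and 1379 in the Bcat_KO pair, 1510 and 2437 in the HOXA9_KO pair, and 1677 and 1620 in the PRMT1_KO pair. Both WT libraries were weaker than all 6 single mutants (exact permutation p = 0.0357 against WT, adjusted p 0.319, and 0.0762 among genotypes). Fold was 11.0 and 11.9 in WT and 15.0 to 17.9 in the single mutants, also without overlap. Its start was in the dKO as well, at rank 4690.

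Bmi1 (chr2:18677018-18686629), a PRC1 subunit that blood stem cells need for self-renewal, had a weaker start region at chr2:18676375-18677874. It ranked 19941 and 15273 in WT, 20180 and 21637 in the Bcat_KO pair, 20236 and 26276 in the HOXA9_KO pair, and 22542 and 22294 in the PRMT1_KO pair. Both WT libraries were stronger by rank than the 6 single mutants, with WT replicate 1 close to Bcat_KO replicate 1 (exact permutation p = 0.0357 against WT, adjusted p 0.319, and 0.295 among genotypes). It was 0.0952 without Bcat_KO replicate 2, PRMT1_KO replicate 1 or PRMT1_KO replicate 2, and fold overlapped, with 4.03 and 4.82 in WT and 4.24 to 4.88 in the single mutants. The region 4.1 kb into the gene ranked 20088 and 18830 in WT and 13936 to 23936 in the single mutants, with all groups overlapping WT.

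The Bmi1 start is shown as the start region weaker by rank in all single mutants whose window lies wholly outside the gene. The 250 bases before it, from RefSeq (GRCm38.p6, chr2:18676768-18677017, plus strand), read as follows.
Bmi1: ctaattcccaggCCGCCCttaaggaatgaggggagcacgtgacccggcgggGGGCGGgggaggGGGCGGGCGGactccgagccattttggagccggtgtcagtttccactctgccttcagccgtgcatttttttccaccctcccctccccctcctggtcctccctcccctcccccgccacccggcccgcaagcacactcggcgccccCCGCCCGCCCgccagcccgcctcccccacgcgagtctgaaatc
Capitals mark 6 matches to the SP/KLF string on either strand, some of which overlap, and no other string was matched in its 70.4% G and C and 21 CpG.

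Asxl1 (chr2:153345830-153404007), the partner of the deubiquitinase Bap1, had a strong start region. This region, chr2:153345361-153346316, ranked 2794 and 3998 in WT, 3862 and 2537 in the Bcat_KO pair, 2993 and 4070 in the HOXA9_KO pair, and 4346 and 3225 in the PRMT1_KO pair. All groups overlapped (exact permutation p = 0.781 among genotypes and 0.786 against WT). A second region 5.0 kb into the gene was found in all 8 lists as deposited, at ranks of 21283 and 24838 in WT and 26452 to 41351 in the single mutants. Both WT libraries were stronger by rank than all single mutants. Most of the single-mutant ranks were below the shortened list, so this region entered no test. Fold overlapped, with 4.81 and 4.15 in WT and 3.41 to 5.44 in the single mutants.

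**Figure D4:**
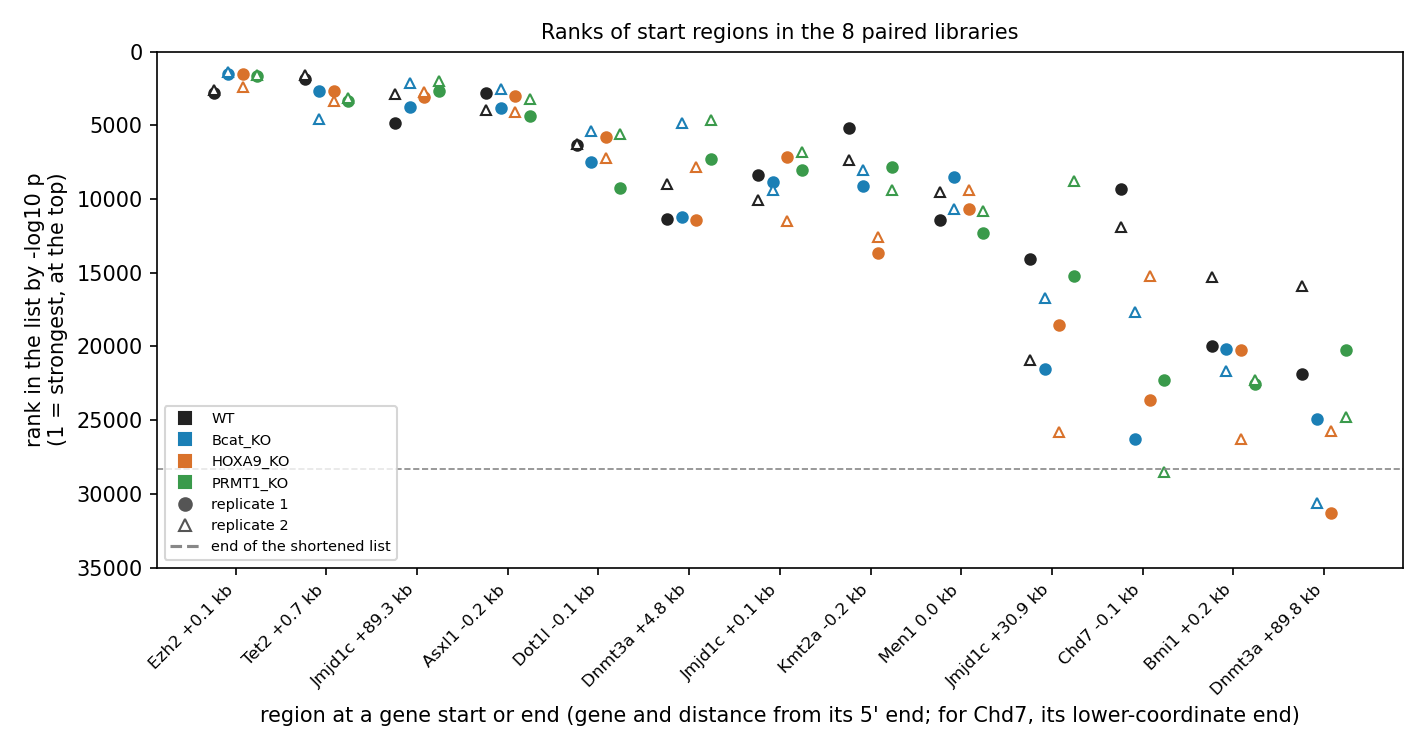
Rank of the regions at a listed start or 5′ end of the 10 genes that have a peak in all 8 paired libraries, with the strongest at the top; colour is genotype, circles are replicate 1 and triangles replicate 2, and the dashed line is the end of the shortened list. WT lies above all single mutants at Tet2, Kmt2a, the lower-coordinate end of Chd7 and Bmi1, lies below them at Ezh2, and overlaps them elsewhere.

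Start regions of WT were stronger by rank across the genome too, so the starts of these genes were read against that. Of all shared regions, 9.73% had both WT ranks stronger than all single-mutant ranks and 8.57% had both weaker, against 3 of 18 and 2 of 18 at these genes. Among shared regions within 1 kb of a listed start, the shares were 12.7% and 5.08%, against 3 of 10 (Tet2, Kmt2a and Bmi1) and 1 of 10 (Ezh2). The median difference in rank, mutants minus WT, was 454 over all shared start regions and 196 over those of these genes. Away from starts it was -251 over all shared regions and -542 over the 8 of these genes.

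The dKO list held a peak at 12 of the 84 regions, and lists of the paired libraries cut to the same 10639 peaks held 11 to 15. These made up 0.115% of all regions in the dKO list and 0.104% to 0.142% of those in the cut lists. The dKO ranks were 1587 and 2176 at the Dnmt3a regions 54.5 kb and 69.5 kb into the gene, 3660 at the Tet2 start, 4690 at the Ezh2 start and 8296 at the Asxl1 start. In Jmjd1c it had the 5′ end at rank 4485, the start at 89.3 kb at 4817 and the start at 30.9 kb at 6993, and not the region at 2.3 kb. No dKO peak was found at Kmt2a, Men1, Dot1l or Bmi1. The peak names of the dKO carry another run naming than those of the other 8 libraries, so run and genotype cannot be told apart, and its depth was lower.

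Other genes of the same pathways were looked up in 5 lists of 120 genes: partners of Kmt2a and Dot1l, Polycomb subunits, genes of DNA methylation and of the Asxl-Bap1 complex, nucleosome remodellers, and histone demethylases. They held 345 regions in the shortened lists. In Bcat_KO 0 were opened and 0 closed (0.311% and 0.0961% of all regions), in HOXA9_KO 0 and 0 (0.508% and 0.182%), and in PRMT1_KO 0 and 0 (0.219% and 0.0823%). At shares this low, counts of 0 say nothing particular about these lists. Of their 152 shared regions, 18 had an unadjusted exact permutation p of 0.05 or less among genotypes, against 12.5% of all shared regions. In the test against WT, 8 regions with stronger and 6 with weaker mutant ranks reached it, against 11.2% of all shared regions in both directions. The nucleosome remodellers, the family of Chd7, had 5 stronger and 2 weaker of 46 shared regions, while their median difference in rank, mutants minus WT, was 459, weaker in the mutants. The histone demethylases, the family of Jmjd1c, had 0 stronger and 1 weaker of 21 shared regions, with a median difference of 588. No share by direction over all shared regions is given for this test, so nothing is read from the counts by direction. The median difference in rank, mutants minus WT, ran from -70.5 for the DNA methylation list to 1204 for the Kmt2a and Dot1l partners, against 178 over all shared regions.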

How the data were processed

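ATAC-seq peaks of 9 libraries were used. The tools that the authors used were Bowtie2 2.4.2, SAMtools 1.14, Picard 2.27.4 and MACS2, on GRCm38/mm10, per the submitters' processing notes. The deposited lists are per library. They give for each peak the authors' score (10 times the −log10 q-value, without decimals), the fold over local background (a ratio), the −log10 p-value, the −log10 q-value (lowest 1.00 or 1.01) and the summit offset. The deposited fold is the authors' own value for each peak and was not scaled between libraries.

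Summit reads were recovered from fold and p (whole within 0.05 reads for 100% of peaks with p in range). Read totals per library are not given in the lists, so depth is known only as the lowest background, 1.03 to 1.60 reads in the paired libraries and 0.461 in the dKO. Precision is limited by 2 libraries per group. Regions of all lists were merged at an overlap of 1 bp and ranked by −log10 p-value in lists of 28325. Ranks of regions in all 8 lists were tested by two-sided exact permutation over 105 divisions into 4 pairs (between-group sum of squares) and over 28 choices of 2 libraries (difference of means), with Benjamini-Hochberg adjustment over 15951 regions. Gene spans and starts came from RefSeq (GRCm38.p6), where Chd7 has no listed start or strand. The code was tested on simulated data. Alternatives were other list lengths, thresholds, ranking, merging and windows, and leaving out libraries. Python 3.11.15, numpy 2.4.6, pandas 2.3.3 and scipy 1.17.1 were used.

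The genes, the lists and the rules were chosen with earlier results of these data known. Named regions are the start region of each gene, opened or closed regions, shared regions with an unadjusted p of 0.05 or less, and up to 2 regions a gene in all libraries of a group and in none of WT. Other regions named were chosen after their values were seen.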

Additional observations from a re-analysis of the deposited data

Results flagged for a closer look

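At 3 regions the libraries of different mutants moved to opposite sides of both WT libraries by rank. The difference between the mutants was not tested in any of them, and the mutants share their WT libraries. No share of all regions with such a pattern is given, so nothing is read from the count of 3.

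The Dot1l region 37.5 kb into the gene was stronger in both HOXA9_KO libraries and weaker in both Bcat_KO libraries than in WT, and the mean rank of HOXA9_KO minus that of Bcat_KO was -11260.5. By fold Bcat_KO (5.69 and 5.46) overlapped WT (5.83 and 5.56). At the Dnmt3a region 69.5 kb into the gene, where the groups moved in the same directions by rank, HOXA9_KO minus Bcat_KO was -1304. By fold Bcat_KO (11.8 and 12.7) overlapped WT (11.5 and 12.2) there too.

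A region 152.6 kb into Chd7, chr4:8842748-8843141, ranked 19683 and 17250 in WT, 24933 and 23297 in Bcat_KO, and 14458 and 10217 in PRMT1_KO. In HOXA9_KO it ranked 35950, below the shortened list, in replicate 1 and had no peak in replicate 2. The mean rank of PRMT1_KO minus that of Bcat_KO was -11777.5. Against HOXA9_KO it was -15988.5, with both HOXA9_KO libraries set just past the end of the shortened list. Fold was 5.40 and 5.91 in WT, 5.54 and 6.34 in Bcat_KO, 3.94 in HOXA9_KO replicate 1, and 8.67 and 10.0 in PRMT1_KO, so WT and Bcat_KO overlap by fold.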

How the results depend on the processing

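Counts of opened regions depended on the threshold. With lists of 20000 peaks, or with a −log10 q-value of at least 5, Bcat_KO, HOXA9_KO and PRMT1_KO each had 1 opened region, and 1 was opened in all 3. With the strongest 9441 peaks in place of 14162, Bcat_KO and HOXA9_KO had 1, PRMT1_KO 0, and 0 were opened in all 3. With the whole shortened list, opened regions numbered 8, 6 and 8 and closed ones 4, 6 and 1, and 1 region was in both WT libraries and in no single mutant. Ranked by fold, Bcat_KO and PRMT1_KO had 1 opened region, 1 was opened in all 3, and each rank test counted 2 regions at an unadjusted p of 0.05 or less in place of 4. In each case the cause was not tested. No share of all regions is given for these settings, or for the counts below with 1 library left out. Only the dependence of the counts on the setting is read from them.

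Leaving out 1 library gave 3 to 5 opened regions in Bcat_KO (5 without Bcat_KO replicate 1), 3 to 4 in HOXA9_KO and 2 to 4 in PRMT1_KO (4 without PRMT1_KO replicate 2). Closed regions numbered 0 to 1 in Bcat_KO and 0 to 2 in HOXA9_KO (the highest in both without WT replicate 1) and 0 to 1 in PRMT1_KO (1 without PRMT1_KO replicate 1). The test among genotypes counted 1 to 5 regions (1 without Bcat_KO replicate 2), a set of fits chosen after seeing the data, and the test against WT 2 to 5 (2 without PRMT1_KO replicate 1). With 1 library of WT that test cannot go below 0.143 and was not run. The mean fold stayed at 11.9 to 12.4 in the Chd7 region and 6.45 to 7.09 in the Jmjd1c region.

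Replicate numbers did not pair the samples: the correlation of same-numbered deviations was -0.0079 to 0.0388. With the replicate block, the test among genotypes counted 1 region, the Dot1l region at 37.5 kb (exact permutation p = 0.0417, the smallest the block allows). The test against WT cannot go below 0.0625 with the block and was not run.

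Of the other values of single regions, 57 kept their side of the threshold, 22 lost it and none reversed. Depth limits what a missing peak shows, above all in the dKO.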
